A study of Drosophila melanogaster with 3 samples.

Results

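Transfer RNA genes are the 290 genes of biotype tRNA that the Ensembl annotation (release 115, BDGP6) places on the nuclear chromosome arms of Drosophila melanogaster, out of 18164 annotated genes there with transposable elements left out. Around the start of each of them, within 500 bp on either side, the binding sites of the protein encoded by CG16863 were counted. Binding was mapped by ChIP-seq with an antibody against GFP, in whole embryos of pooled sex, aged 0 to 16 h, from a transgenic line that stably expresses CG16863 with GFP fused to its C-terminal end. The series holds 3 biological replicates of this 1 group, with no second genotype, treatment or time, and no control library was analysed here. A single line was used, whole embryos mix all cell types, and which promoter drives the fusion protein is not stated.

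A transfer RNA (tRNA) carries an amino acid to the ribosome and reads a codon through its anticodon. Its gene is transcribed by RNA polymerase III from a promoter that lies inside the gene, made of an A box and a B box bound by the factor TFIIIC, which then places TFIIIB just before the start. An isotype is the set of tRNAs that carry the same amino acid, and in flies many tRNA genes occur as identical copies and in tight clusters, often close to genes transcribed by RNA polymerase II. The 290 genes held 22 isotypes, with the initiator methionine tRNA (iMet) and the selenocysteine tRNA (SeC) counted as isotypes of their own, and 45 anticodon groups. Their length ran from 71 to 186 bp with a median of 73 bp, 16 had an intron, and they amounted to 95 distinct sequences. Of the 290, 238 had an identical copy elsewhere and 52 had none. The letters GGTTCGA, one form of the B box core, were found in 145 of them (50%), and the looser GTTCNA, where N is any base, in 272 (93.8%), so the sequences carried the mark of their class. The distance from a tRNA gene to the nearest protein-coding transcription start site (TSS) ran from 11 to 52670 bp, with a median of 2895 bp.

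The authors deposited 5 peak lists that were used here, each with a summit and a signal height per peak. The reproducible set held 3953 peaks. It was thresholded by the irreproducible discovery rate (IDR), which scores how well ranks match between replicates, and it equalled the pooled peaks with a signal of at least 108.6. The other lists were called with relaxed settings as input to that step, 23571 peaks on the pooled replicates and 24378, 30000 and 29769 peaks in replicates 1, 2 and 3. They include background by design, per the deposited file names, and a q value of at most 0.01 was reached by 20.7% of the pooled peaks and by 12.3 to 21.2% of the replicate peaks. A stricter list was therefore taken from each replicate, its 3953 peaks of highest signal, called its strongest peaks below. Read depth was not stated, so the precision of single calls is unknown. Replicate heights were made comparable as relative signal, the height divided by the median height of that replicate's peaks within 100 bp of reproducible summits.

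Reproducible summits were few at tRNA genes. Of the 290 genes, 9 had one within 500 bp (3.10%), against 12.8% of all genes measured at their 5′ ends and 2.82% of all bases of the 6 arms. The 9 genes shared 8 summits, and no summit lay inside a tRNA gene: the distances to the tRNA start ran from 160 to 487 bp. For 6 of the 8, a protein-coding TSS lay within 500 bp of the summit and nearer to it than the tRNA gene. The share of tRNA genes was thus near that of an average base and below that of an average gene.

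The strongest of the 8 lay at tRNA:Tyr-GTA-1-8, a tyrosine tRNA gene with an intron on arm 3R. Its pooled signal of 906 ranked 80 in the pooled list, and its relative signal was 4.70, 5.92 and 4.22 in replicates 1, 2 and 3 (mean 4.95 ± 0.878, SD, n = 3). The summit lay 236 bp upstream of the tRNA start and 208 bp upstream of a TSS of CG8036, within whose span the tRNA gene lies. No replicate at any of the other sites exceeded 1.92. tRNA:Gln-TTG-2-1, a glutamine tRNA gene on the X within CG12535, had relative signals of 1.44, 1.92 and 1.19 at a summit 261 bp upstream of its start. Here no protein-coding TSS was close, the nearest, of CG14269, being 8023 bp away. tRNA:Phe-GAA-1-2, a phenylalanine tRNA gene on the X, had 1.47, 1.21 and 1.53 at a summit 267 bp downstream of its start. That summit was 38 bp upstream of the TSS of RpL17, which encodes a protein of the large ribosomal subunit. tRNA:Val-CAC-2-5, a valine tRNA gene on 3R, had a summit of 1.26, 1.69 and 1.22 that lay 487 bp downstream of its start, and 412 bp downstream of the TSS of Naam, a nicotinamidase gene of NAD salvage whose span holds the tRNA gene. At this gene only the replicate 1 summit fell inside the 500 bp window. tRNA:Asp-GTC-1-4 and tRNA:Asp-GTC-1-5, a divergent pair of aspartate tRNA genes on 2L, shared a summit with 1.01, 1.09 and 1.43. It was 430 bp upstream of one start, 292 bp downstream of the other, and 94 bp upstream of the TSS of Sema1a, which encodes a transmembrane semaphorin of axon guidance.

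The sequences of these sites are shown to set the tRNA genes beside the DNA that the summits mark, since the summits lie outside the genes. They were read from the RefSeq genome (Release 6, dm6). In the tRNA genes, written 5′ to 3′ on the coding strand, capitals mark the B box core GTTCNA at its last match. In the summit windows, written on the plus strand, nothing is capitalised, because none of the motifs listed further on was found in any of these 5 windows. The tyrosine tRNA gene lies at chr3R:8669081-8669174 (minus strand), the glutamine gene at chrX:3427452-3427523 (minus), the valine gene at chr3R:19672277-19672349 (minus), and the aspartate genes at chr2L:8541552-8541623 (minus) and chr2L:8541761-8541832 (plus). The 2 aspartate genes are identical and belong to a set of 12 copies. The tyrosine and glutamine genes have no identical copy.
tRNA:Tyr-GTA-1-8: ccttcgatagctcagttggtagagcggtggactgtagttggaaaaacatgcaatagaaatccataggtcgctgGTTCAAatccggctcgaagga
tRNA:Gln-TTG-2-1: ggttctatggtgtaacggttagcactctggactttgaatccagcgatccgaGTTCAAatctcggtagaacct
tRNA:Val-CAC-2-5: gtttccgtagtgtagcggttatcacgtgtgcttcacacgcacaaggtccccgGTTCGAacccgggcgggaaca
tRNA:Asp-GTC-1-4 and tRNA:Asp-GTC-1-5: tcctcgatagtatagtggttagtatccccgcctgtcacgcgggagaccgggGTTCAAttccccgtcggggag
Summit at CG8036 and tRNA:Tyr-GTA-1-8, chr3R:8669360-8669460: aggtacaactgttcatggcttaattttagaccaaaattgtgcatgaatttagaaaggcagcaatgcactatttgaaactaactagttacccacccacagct
Summit at tRNA:Gln-TTG-2-1, chrX:3427734-3427834: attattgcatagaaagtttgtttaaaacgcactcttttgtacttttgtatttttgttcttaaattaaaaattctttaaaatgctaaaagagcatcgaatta
Summit at RpL17 and tRNA:Phe-GAA-1-2, chrX:6744239-6744326: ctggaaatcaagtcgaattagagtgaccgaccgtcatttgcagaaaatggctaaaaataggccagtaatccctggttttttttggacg
Summit at Naam and tRNA:Val-CAC-2-5, chr3R:19671812-19671912: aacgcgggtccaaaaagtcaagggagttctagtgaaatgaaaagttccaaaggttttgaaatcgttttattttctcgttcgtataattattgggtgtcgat
Summit at Sema1a and the aspartate pair, chr2L:8542003-8542103: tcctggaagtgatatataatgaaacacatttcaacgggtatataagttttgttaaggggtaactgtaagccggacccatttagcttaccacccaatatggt

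Each summit window held 101 bp, or 88 bp at RpL17, where the exon bases were left off. The other 3 reproducible summits were on 2R. At tRNA:His-GTG-1-3, a histidine tRNA gene, the summit lay 160 bp upstream of its start, the shortest distance of the 8, and 90 bp upstream of the TSS of CG8490, with relative signals of 1.51, 0.888 and 1.32. At tRNA:Trp-CCA-2-2, a tryptophan tRNA gene, it lay 286 bp upstream and 1 bp from the TSS of CG30122, with 0.872, 0.813 and 0.972. At tRNA:Glu-TTC-1-5, a glutamate tRNA gene in a cluster of 7 tRNA genes, it lay 311 bp downstream with 0.981, 1.00 and 0.787. Its nearest protein-coding TSS was 13144 bp away, but the start of a small nucleolar RNA (snoRNA) gene was 68 bp away. Thus 1 summit of the 8, that at the glutamine gene, had neither a protein-coding TSS nor another annotated gene start within 500 bp.

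**Figure D1:**
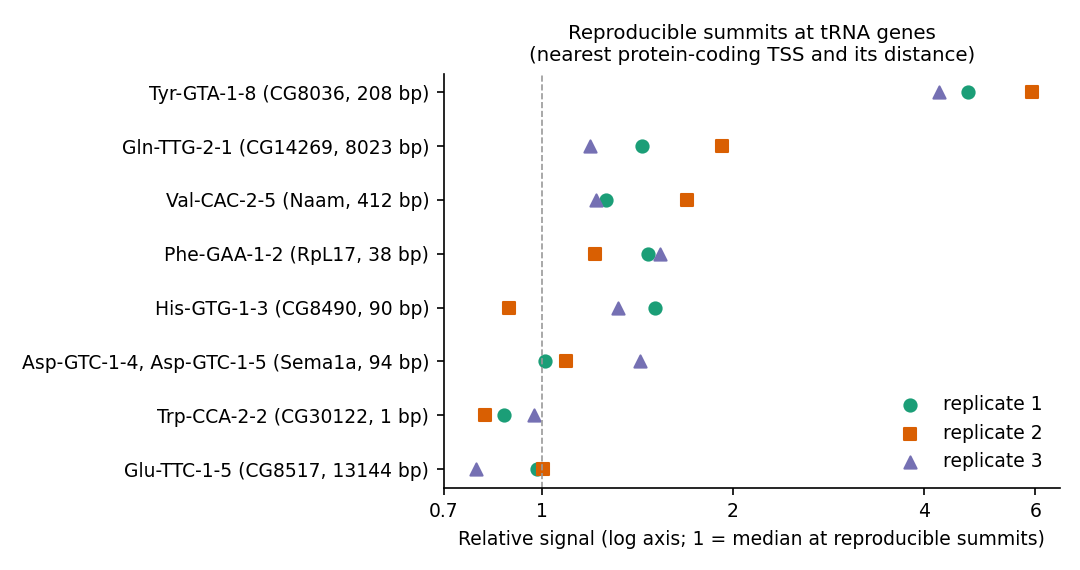
Relative signal (log axis, 1 = median at reproducible summits) of each replicate at the 8 reproducible summits beside tRNA genes, ordered by pooled signal, with the gene of the nearest protein-coding TSS and its distance from the summit. Each point is 1 replicate. The tyrosine gene stands at 4.22 to 5.92, and no replicate of another site exceeds 1.92.

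The reproducible set ends at a signal of 108.6, and the summit of lowest signal inside it at a tRNA gene was the glutamate one, at 155. Just outside came tRNA:Lys-TTT-1-1 at 103.7 and tRNA:Leu-TAA-2-1 at 103.6, a lysine and a leucine tRNA gene. The lysine summit had relative signals of 0.536, 0.524 and 0.655 and lay 6045 bp from the nearest coding TSS, of Btk, a tyrosine kinase gene. The leucine summit had 0.497, 0.606 and 0.671 and lay 335 bp upstream of CG13605. Both were present in all 3 replicates, and none of these heights reached the 0.787 of the lowest replicate value at the 8 reproducible summits. 

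The 15 pooled summits of highest signal outside the reproducible set, these 2 included, reached down to a pooled signal of 69.6. Of them, 9 were matched within 100 bp in all 3 replicates and 6 in 2. A protein-coding TSS lay within 500 bp of 2 of the 15, at CG13605 and CG9289, against 6 of the 8 reproducible ones, and 6 of the 15 lay within 100 bp of a tRNA start, against 0 of the 8. These differences between 2 stretches of a ranked list were not tested. The 6 were at tRNA:Phe-GAA-1-4 (19 bp), tRNA:Arg-TCT-1-1 (29 bp), tRNA:Ala-AGC-2-11 (33 bp), tRNA:Arg-ACG-1-4 (38 bp), tRNA:Gly-TCC-1-2 (50 bp) and tRNA:Ala-CGC-1-2 (85 bp). The highest of these, at tRNA:Phe-GAA-1-4, had a pooled signal of 102.2 and relative signals of 0.662 and 0.622 in replicates 1 and 2, with no peak within 500 bp in replicate 3. At tRNA:Ala-AGC-2-11 the 3 values were 0.266, 0.539 and 0.565, and at tRNA:Ala-CGC-1-2 they were 0.435, 0.510 and 0.266. The others of the 15 were at tRNA:Arg-CCT-1-2, tRNA:Gly-TCC-2-2, tRNA:Val-CAC-1-1, tRNA:Thr-AGT-1-2, tRNA:Tyr-GTA-1-4, tRNA:Asp-GTC-1-9 and tRNA:Phe-GAA-1-6, with pooled signals of 69.6 to 90.6.

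In the relaxed lists, summits lay beside many more tRNA genes, and the replicates differed. The pooled list had a summit at 95 of the 290 (32.8%), against 39.2% of all genes and 15.6% of bases. Replicate 1 had a summit at 91 (31.4%), against 35.7% of all genes and 16.4% of bases. Replicate 2 had one at 146 (50.3%), against 44.5% of all genes and 19.1% of bases. Replicate 3 had one at 65 (22.4%), against 41.8% of all genes and 19.7% of bases. Replicate 2 was thus above the share of all genes and replicates 1 and 3 below it, and every replicate was above the share of bases. The mean was 34.7 ± 14.3% for tRNA genes, 40.7 ± 4.55% for all genes and 18.4 ± 1.77% for bases (SD, n = 3 each). The excess over bases was 14.98, 31.2 and 2.67 percentage points in replicates 1, 2 and 3. With 3 replicates an exact two-sided sign-flip permutation test cannot go below p = 0.25, which is what it gave here.

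Among the strongest peaks, the replicates were closer. They lay beside 14, 11 and 10 tRNA genes in replicates 1, 2 and 3, which is 4.83, 3.79 and 3.45%, against 12.3, 12.3 and 13.2% of all genes. Of all bases, 2.80 to 2.81% lay within 500 bp of such a summit. The mean was 4.02 ± 0.718% for tRNA genes, 12.6 ± 0.489% for all genes and 2.80 ± 0.00509% for bases (SD, n = 3 each). All 3 replicates lay above the bases, by 2.03, 0.988 and 0.639 percentage points (exact two-sided sign-flip permutation p = 0.25, the smallest possible), and below all genes by a margin wider than the spread between replicates. For snoRNA genes the strongest peaks gave 2.97, 4.09 and 5.95%, a mean of 4.34 ± 1.502% that lay within the spread of the tRNA share. The snRNA genes were higher, at 28.1, 25.0 and 28.1%. In the reproducible set the counts were 12 of 269 snoRNA genes and 9 of 32 snRNA genes, the class that makes the splicing RNAs and includes other polymerase III genes such as U6.

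**Figure D2:**
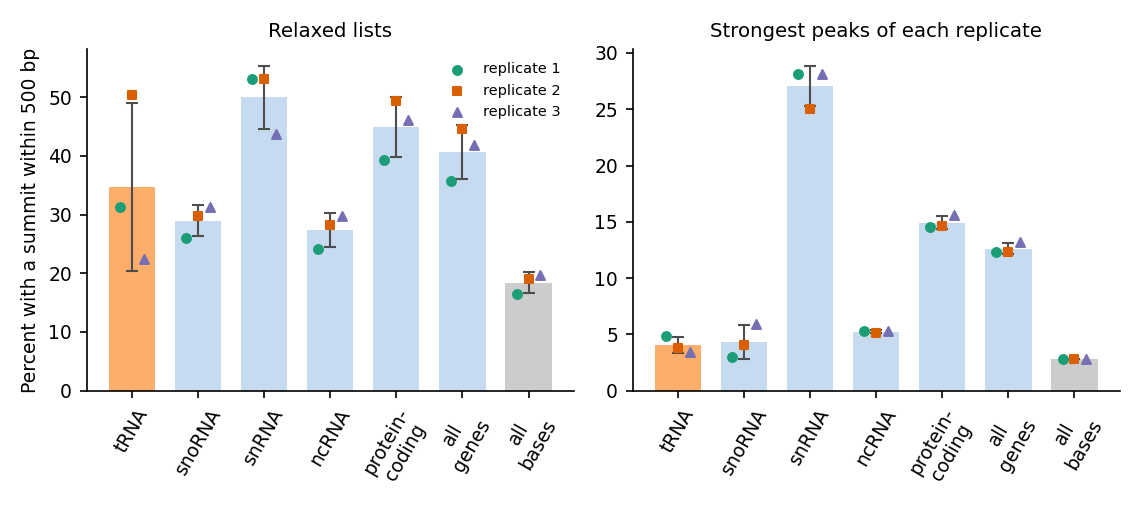
Percent of genes of each class with a summit within 500 bp of the gene's 5′ end, for the relaxed lists (left) and for the 3953 strongest peaks (right), and the percent of all bases within 500 bp of a summit (grey). Bars are means of the 3 replicates, error bars are SD and points are replicates. In the relaxed lists the tRNA points spread from 22.4 to 50.3%, wider than those of any other class shown; among the strongest peaks they lie at 3.45 to 4.83%.

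The replicates kept their order at equal list lengths of 8000 peaks or more. When each list was cut to its strongest 24378 peaks, the length of the shortest list, tRNA genes with a summit numbered 91, 125 and 59 in replicates 1, 2 and 3 (31.4, 43.1 and 20.3%), while bases stood at 16.4, 15.7 and 16.3%. At 8000 peaks the counts were 25, 40 and 14 genes (8.62, 13.8 and 4.83%), against 5.57, 5.48 and 5.59% of bases. At 2000 peaks they were 7, 6 and 6 genes. The replicates therefore gave almost the same count at the top of their lists and drew apart with the weaker peaks.

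**Figure D3:**
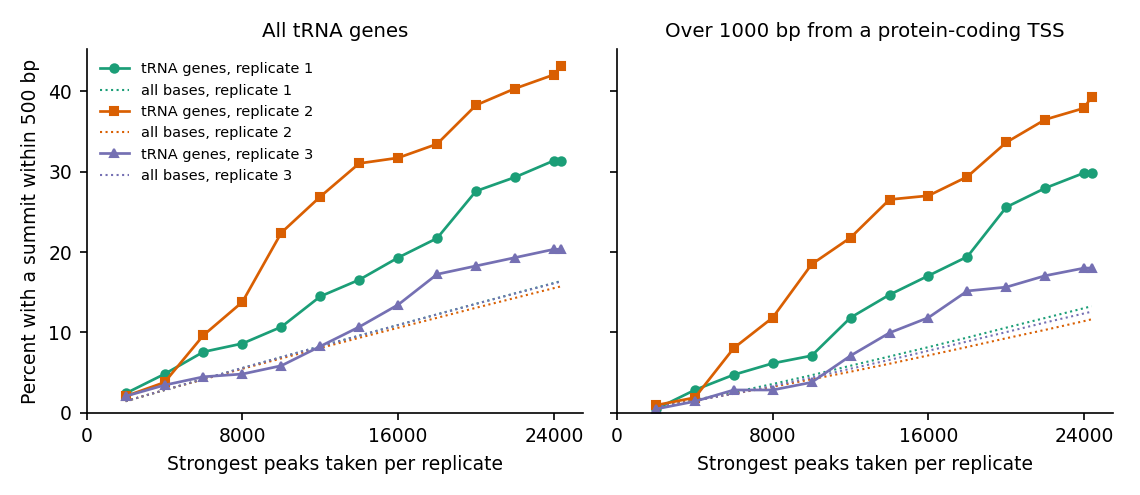
Percent of tRNA genes with a summit within 500 bp (solid lines) against the number of strongest peaks taken from each replicate, with the percent of bases covered in the same way (dotted), for all 290 tRNA genes (left) and for the 211 over 1000 bp from a protein-coding TSS (right). At 24378 peaks the left panel reads 31.4, 43.1 and 20.3% for replicates 1, 2 and 3, with bases between 15.7 and 16.4%.

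Counted gene by gene, 118 tRNA genes had no summit in any replicate, 82 had one in 1 replicate, 50 in 2 and 40 in all 3. As shares these were 40.7, 28.3, 17.2 and 13.8% of tRNA genes, against 42.1, 18.9, 13.9 and 25.1% of all genes. Of the 82 seen in a single replicate, 61 were in replicate 2, 14 in replicate 1 and 7 in replicate 3. Over all genes, 3424 were seen in a single replicate: 1510 in replicate 2, 691 in replicate 1 and 1223 in replicate 3. Whether the summits themselves coincided depended on the pair of replicates. Of the 74 distinct tRNA summits of replicate 1, 59.5% had a replicate 2 summit within 100 bp and 41.9% a replicate 3 summit, against 44.1 and 42.0% for its whole list. Of the 130 of replicate 2, 33.1% had one in replicate 1 and 27.7% in replicate 3, against 35.8 and 38.4%. Of the 56 of replicate 3, 51.8% had one in replicate 1 and 60.7% in replicate 2, against 34.4 and 38.7%. These differences were not tested.

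The peaks at tRNA genes were of ordinary height for the lists. The median relative signal at tRNA genes with a summit was 0.339 in replicate 1, 0.321 in replicate 2 and 0.328 in replicate 3 (mean 0.329 ± 0.00936, SD, n = 3), against whole-list medians of 0.345, 0.268 and 0.325. In 2 of the 3 replicates the tRNA median was above that of the list, and the means differed by less than the SD of the list medians, 0.312 ± 0.0397. The tRNA median took the highest summit of each gene and counted a shared summit once per gene, unlike the list median. Over distinct summits the median heights were 19.09, 19.51 and 17.97, against 19.04, 18.76 and 17.54 for the lists, slightly above in all 3. A q value of at most 0.01 was reached by 11 of the 76 distinct pooled summits at tRNA genes (14.5%), against 20.7% of the pooled list. In replicates 1, 2 and 3 it was reached by 10 of 74 (13.5%), 26 of 130 (20%) and 8 of 56 (14.3%), against 14.3, 21.2 and 12.3% of the whole lists.

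Position along the tRNA gene also differed between replicates. In the bin of 200 bp that begins at the tRNA start, which is wider than any tRNA gene here, the density of relaxed summits was 0.295 per kb in replicate 1, 0.681 in replicate 2 and 0.166 in replicate 3, against 0.182, 0.224 and 0.223 per kb over all bases. In the 200 bp upstream it was 0.308, 0.635 and 0.231 per kb. Replicate 2 was thus about 3 times its own average across the gene. Replicate 3 was slightly above its average in the 200 bp upstream and below it in the bin from the start. From 201 to 400 bp upstream all 3 replicates were above their average, at 0.466, 0.647 and 0.440 per kb. This excess was not confined to that stretch. All 3 were also above their average in every bin from 200 to 1399 bp downstream. At 600 to 799 bp downstream they stood at 0.390, 0.480 and 0.480 per kb. From 1400 to 1799 bp downstream replicate 3 was below its average, at 0.194 and then 0.131 per kb.

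**Figure D4:**
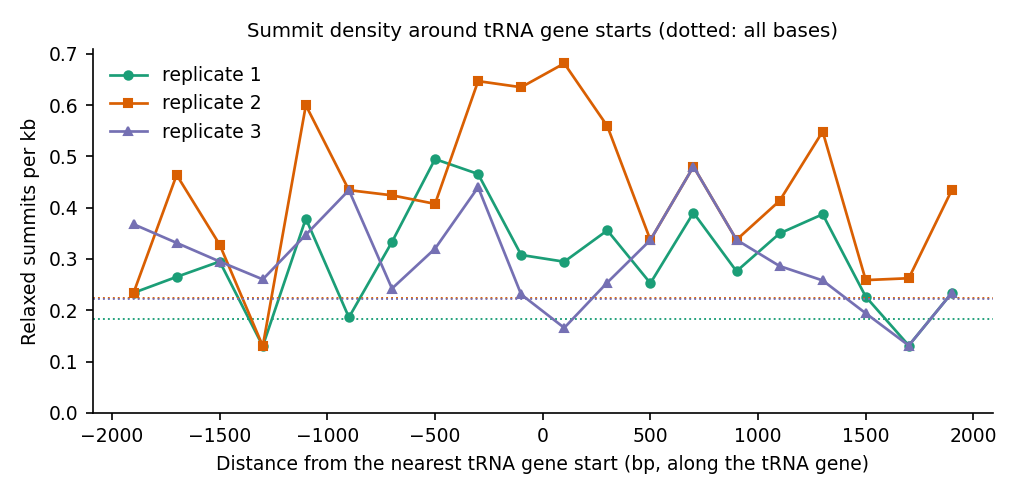
Relaxed summits per kb in bins of 200 bp by signed distance from the nearest tRNA gene start, negative values lying upstream, for each replicate, with dotted lines for each replicate's density over all bases (0.182, 0.224 and 0.223 per kb). In the bin that begins at the start, replicate 2 reads 0.681 and replicate 3 reads 0.166.

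Inside the 22026 bases of the tRNA genes themselves lay 8, 21 and 4 summits in replicates 1, 2 and 3, or 0.363, 0.953 and 0.182 per kb, against 0.334, 0.551 and 0.263 per kb in the flanks out to 500 bp. The pooled list had 10 summits there and the reproducible set 0. In all, 26 tRNA genes held a summit in some replicate: 20 in 1, 5 in 2 and 1 in all 3. The single gene with a summit inside it in every replicate was tRNA:Arg-ACG-1-4, an arginine tRNA gene on 2R, 1997 bp from the TSS of Cyp6w1, a cytochrome P450 gene. Its relative signal was 0.254, 0.629 and 0.360 (mean 0.414 ± 0.193, SD, n = 3), below the median of reproducible summits in each replicate. The 5 genes with a summit inside in 2 replicates were tRNA:Ala-AGC-2-11, tRNA:Gly-TCC-1-2, tRNA:Phe-GAA-1-5, tRNA:Ser-CGA-1-4 and tRNA:Val-CAC-2-6, and replicate 2 was 1 of the 2 at each.

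Closeness to a protein-coding TSS went with a higher share in every replicate. Of the 290, 79 tRNA genes lay within 1000 bp of such a TSS and 211 lay farther. The near genes had a relaxed summit in 35.4, 59.5 and 30.4% of cases in replicates 1, 2 and 3, and the far genes in 29.9, 46.9 and 19.4%. The difference was 5.59, 12.6 and 10.9 percentage points, with a mean of 9.70 ± 3.66 (SD, n = 3; exact two-sided sign-flip permutation p = 0.25, the smallest possible). Bases showed a wider gap: 28.7, 36.3 and 35.4% of bases near a coding TSS lay within 500 bp of a relaxed summit, and 13.3, 14.7 and 15.8% of far bases, a mean difference of 18.9 ± 3.11 points (SD, n = 3). Near genes were above near bases by 6.71 and 23.2 points in replicates 1 and 2 and below them in replicate 3 (−5.02 points). Among the strongest peaks the difference between near and far tRNA genes was 7.28, 6.97 and 7.44 points, mean 7.23 ± 0.242 (p = 0.25 by the same exact test), with 9.28 ± 0.731% of near and 2.05 ± 0.724% of far genes. The reproducible set had 7 of the 79 near genes (8.86%) and 2 of the 211 far genes (0.948%), against 7.77% of all bases near a coding TSS and 1.55% of all bases far from one. Both tRNA shares in the reproducible set thus stood close to those of bases at the same distance.

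In steps of distance the change was largest at the shortest. With a coding TSS at 0 to 500 bp, 5 of 32 tRNA genes had a reproducible summit, beyond that and up to 1000 bp 2 of 47, then up to 5000 bp 0 of 101, and over 5000 bp 2 of 110. Relaxed summits were at 13, 23 and 12 of the 32 closest genes in replicates 1, 2 and 3, then at 15, 24 and 12 of 47, at 29, 47 and 20 of 101, and at 34, 52 and 21 of 110. The mean shares were 50 ± 19.0%, 36.2 ± 13.3%, 31.7 ± 13.6% and 32.4 ± 14.2% (SD, n = 3). Taken within replicates, the closest class exceeded the next by 8.71, 20.8 and 12.0 points, that class exceeded the third by 3.202, 4.53 and 5.73 points, and the third differed from the last by −2.20, −0.738 and 0.711 points. Among the strongest peaks, 6 of the 32 closest genes had a summit in each replicate (18.8%), and no other class exceeded 4.26% in any replicate. Protein-coding genes, counted at their own 5′ ends, had 14.6, 14.6 and 15.6% among the strongest peaks. In the reproducible set they had 15.2%, against 15.6% for the closest tRNA genes. Their relaxed mean was 45.0 ± 5.13% (SD, n = 3). Bases were not counted by these steps of distance.

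**Figure D5:**
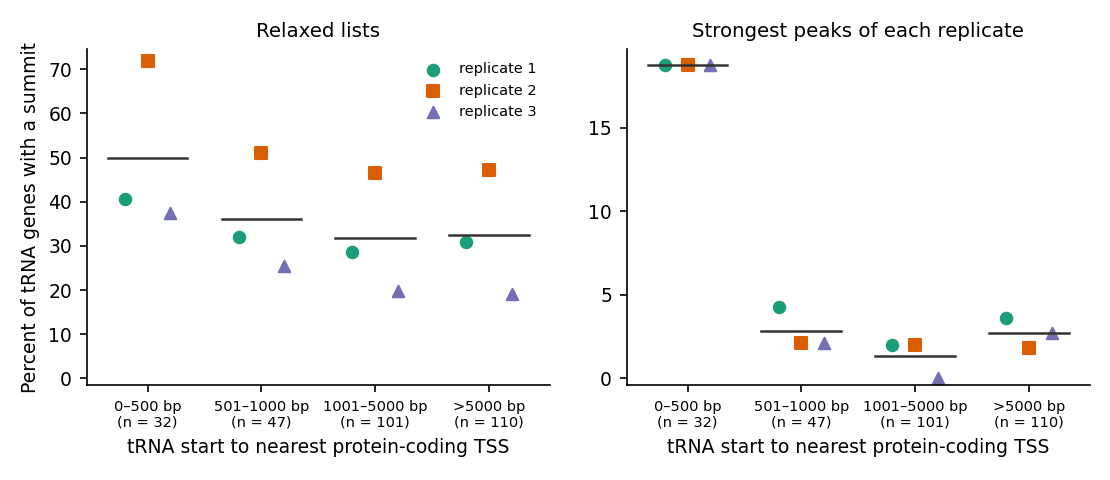
Percent of tRNA genes with a summit within 500 bp, by distance of the tRNA start from the nearest protein-coding TSS, for the relaxed lists (left) and the 3953 strongest peaks (right). Points are replicates and lines are means of 3. In the class at 0 to 500 bp the strongest peaks give 18.8% in each replicate, and in the other classes no replicate exceeds 4.26%. Protein-coding genes at their own 5′ ends, not drawn, have 14.6, 14.6 and 15.6% among the strongest peaks.

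Far from coding TSSs, the rank of tRNA genes among the gene classes in the relaxed lists differed between replicates. The 211 far tRNA genes had 29.9, 46.9 and 19.4% in replicates 1, 2 and 3, against 18.2, 21.3 and 22.9% for the 2823 other genes over 1000 bp from a coding TSS. Far snRNA genes, 27 in number, stood above tRNA genes in each replicate, at 51.9, 51.9 and 44.4%. Far snoRNA genes had 15.2, 21.7 and 21.7% and far ncRNA genes 19.9, 22.9 and 25.2%. Replicate 3 put tRNA genes below the snoRNA and ncRNA genes, and replicates 1 and 2 put them above. Set against bases far from a coding TSS, the tRNA share was higher by 16.6, 32.2 and 3.68 points (mean 17.5 ± 14.3, SD, n = 3; exact sign-flip permutation p = 0.25, two-sided, the smallest possible). With the strongest peaks the far genes exceeded far bases by 1.26, 0.343 and −0.0585 points, a mean of 0.515 ± 0.677 that did not exceed its spread (exact permutation p = 0.5). These far tRNA shares, 2.84, 1.90 and 1.42%, were below those of the other far genes in each replicate, 3.68, 3.58 and 3.44%. Far snoRNA genes, at 1.09, 2.17 and 1.63%, were below tRNA genes in replicate 1 only. In the reproducible set the shares were 0.948% of far tRNA genes and 3.54% of the other far genes.

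Clustering went with no steady difference. Genes whose starts lay within 5000 bp of the next were joined, which gave 68 clusters with 214 genes and 76 single genes, 144 loci in all. Clustered genes had a relaxed summit in 33.6, 53.7 and 22.0% of cases in replicates 1, 2 and 3, and single genes in 25.0, 40.8 and 23.7%. The difference was 8.64, 12.9 and −1.72 points, a mean of 6.62 ± 7.54 that was within its spread (SD, n = 3; exact two-sided sign-flip permutation p = 0.5). Among the strongest peaks clustered genes were lower in each replicate, with a mean difference of −2.27 ± 1.98 points (exact permutation p = 0.25, the smallest possible). Neighbouring tRNA genes can share a summit, so genes of a cluster are not independent. Counted as loci, 60, 84 and 49 of the 144 had a relaxed summit in replicates 1, 2 and 3, and 8 had a reproducible one.

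The 10 clusters of 5 or more tRNA genes varied among themselves. The counts are of genes, and neighbouring genes can have the same summit. The 2 largest held 11 genes each. One, on 2R and partly within EcR, the ecdysone receptor gene, mixed arginine, asparagine, isoleucine and lysine tRNA genes (chr2R:6161535-6171687, from first to last start). It had a pooled summit at 8 of 11 genes and a relaxed one at 4, 8 and 4 in replicates 1, 2 and 3. Neighbours shared these summits: the 8 genes had only those with pooled signals of 37.4, 41.1 and 89.1, the lowest at 4 genes. Replicate summits were shared as well. The other, on 3R beside AttD, an antibacterial peptide gene, mixed alanine, proline, threonine and valine tRNA genes and had 3 pooled and 4, 5 and 3 in the replicates. The widest disagreement was at a 2R cluster of 5 isoleucine and 2 leucine genes (chr2R:13430355-13432668). It lies within ATP8A, and its closest coding TSS is that of CG30065. It had a summit at 1 of 7 genes in replicate 1, at 7 in replicate 2 and at 0 in replicate 3. In replicate 2 neighbours shared summits, and the highest at each of the 7 genes had a height of 26.5, 23.1 or 15.9. A 3R cluster of 5 arginine genes and 1 asparagine gene, with Arl8 the nearest coding gene, had 0, 3 and 0 of 6. The 3 genes shared a single replicate 2 summit of height 24.1. An X cluster of 5 arginine and 2 serine genes, near Ste12DOR, had 2, 0 and 0 of 7. The cluster of 5 glutamine genes near CG4238 on 2L had 2 in each replicate, but no gene of it had a summit in all 3. Replicates 1 and 3 had one at the same 2 genes, and replicate 2 at another 2. In each replicate it was a single summit shared by the 2 genes. From the start of 1 gene it lay 266 bp downstream in replicate 1 and 130 bp in replicate 3, not matched within 100 bp. The cluster of 4 cysteine and 2 lysine genes on 3L within Cht7, a chitinase gene, had 3, 4 and 3 of 6. The same 3 cysteine genes had one in every replicate, but in replicates 1 and 3 it was a single summit shared by all 3 genes. The cluster of 5 glutamate and 2 iMet genes on 2R holds the reproducible summit at tRNA:Glu-TTC-1-5 and had 4, 6 and 1 of 7. The 2 remaining clusters, both on 3L, were of 6 glutamate genes within Ptp61F and near CG32320 (0, 1 and 0) and 6 leucine genes near CG42590 (1, 3 and 1).

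By isotype, aspartate, iMet, alanine and cysteine genes were above the share of all tRNA genes in each replicate. Serine, lysine and glutamate genes and the SeC gene were below it. Pooled summits were most frequent at aspartate genes, 10 of 14, with 9, 11 and 4 in replicates 1, 2 and 3. These were followed by iMet genes, 4 of 6 pooled and 4, 5 and 2 in the replicates. The 4 iMet genes were neighbouring pairs, each pair with 1 shared pooled summit, of signal 46.0 and 56.3. In replicate 3 the 2 genes shared 1 summit. Isoleucine genes showed the widest split, with 3, 11 and 1 of 11, and 5 of the 11 belong to the 2R cluster that was seen in replicate 2. At the low end stood serine genes, with 3 of 20 in the pooled list and 3, 7 and 0 in the replicates, among them 6 Ser-GCT genes with none in any list. Lysine genes had 6 of 19 pooled and 3, 5 and 3 in the replicates. Threonine genes had 3 of 17 pooled, tryptophan genes 1 of 8 and methionine elongator genes 1 of 6. The largest isotype, arginine, had 6 of 26 pooled and 9, 11 and 7 in the replicates, and alanine, with 8 of 17 pooled, had 6, 9 and 7. Cysteine genes had 3 of 7 pooled and 3, 4 and 3 in the replicates, and glutamate genes 7 of 19 pooled and 4, 8 and 4. The single SeC gene had no summit in any list. Isotypes of 1 to 26 genes, many of them neighbours, allow no test of these differences over replicates beyond the counts given.

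By copy number the shares differed by less than their spread. Genes without an identical copy had a relaxed summit in 35.9 ± 13.9% of cases and genes with one in 34.5 ± 14.6%, a difference of 1.44 ± 6.65 points (SD, n = 3; exact sign-flip permutation p = 0.75). How reads that match several identical copies were placed was not stated. The 134 genes inside the span of a protein-coding gene had 37.1 ± 14.0% and the 156 outside 32.7 ± 14.5%, a difference of 4.37 ± 1.01 points that was positive in 3 of 3 replicates (exact permutation p = 0.25, the smallest possible). Among the strongest peaks that difference had the other sign, with 2.49 ± 0.431% inside and 5.34 ± 0.979% outside, −2.85 ± 0.589 points, negative in 3 of 3 (exact permutation p = 0.25, the smallest possible). By arm, the mean relaxed share was 41.5 ± 14.6% on 2L (41 genes), 40.8 ± 20.1% on 2R (98), 29.2 ± 12.7% on 3L (48), 31.6 ± 10.05% on 3R (79) and 19.4 ± 8.67% on X (24).

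The summit windows at tRNA genes were searched for 8 short motifs on both strands. GGTTCGA, the B box core, was in 1 of the 8 windows of reproducible summits at tRNA genes, against 0.835% of all reproducible summits, and in 8 of the 68 other pooled summits at tRNA genes (11.8%), against 0.637% of all other pooled summits. A window reaches 50 bp to either side of the summit, so among the 68 it can take in part of a tRNA gene. At the 8 reproducible summits the nearest tRNA start was at least 160 bp away, and no window took in a tRNA gene. The core promoter letters TATAAA were in 1 of 8 and 14 of 68 (20.6%), against 17.5 and 10.4% of the 2 whole sets. The DRE core TATCGATA was in 1 of 8 and 0 of 68, against 2.25 and 0.877%, and its inner letters CGATA, a BEAF-32 site that any DRE core also holds, were in 1 of 8 and 6 of 68, against 17.0 and 12.9%. The core of Ohler motif 1, GGTCACAC, and the GAGA element, GAGAGAG, were in none of the 8 or the 68; the whole sets had 0.860 and 0.709% of the first, and 1.52 and 1.78% of the second. The Zelda site CAGGTAG was in 0 of 8 and 1 of 68 (1.47%), against 0.506 and 0.729%. The E box CAGCTG was in 0 of 8 and 3 of 68 (4.41%), against 4.33 and 5.59%. The windows had a mean GC content of 37.1% at the 8 summits, against 36.1% for all reproducible summits, and of 42.5% at the 68, against 44.7%.

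Protein-coding genes that make, load and process tRNAs were counted as well, at any of their TSSs rather than at a single start. A reproducible summit lay within 500 bp of a TSS at 17.1% of all protein-coding genes, and at 6 of 17 genes for RNA polymerase III subunits, 3 of 10 for initiation and regulation, 4 of 21 for tRNA processing and 8 of 20 for aminoacyl-tRNA synthetases, which charge tRNAs with their amino acids. As shares these are 35.3, 30, 19.0 and 40%, of which that for processing lies near the background of all protein-coding genes. No test was made of these lists. The highest in these lists was Bdp1, a TFIIIB subunit, with relative signals of 4.91, 4.45 and 5.10 (mean 4.82 ± 0.335, SD, n = 3). Brf, the TFIIIB subunit that contacts the polymerase, had 3.14, 2.85 and 3.22, and Polr2H, a subunit shared with the other nuclear polymerases, 3.41, 2.83 and 3.04. Among the synthetases, AsnRS had 2.64, 3.75 and 3.29, SerRS 2.73, 2.21 and 1.89 and IleRS 1.63, 1.75 and 1.77. Among the processing genes, La, whose product binds the 3′ ends of new polymerase III transcripts, had 1.29 and 1.36 in replicates 1 and 2 and no matched peak in replicate 3, and RNaseZ, which trims the 3′ trailer, had 0.729, 0.685 and 0.672. At 19 of these 21 genes another gene also had a TSS within 500 bp of the summit, such as CG6565 at Bdp1 and sds22 at Brf, so the summit cannot be assigned to 1 gene. TfIIIA, also listed, was not matched in the annotation.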

How the data were processed

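The authors deposited peak lists on dm6 and dm3. Only the dm6 lists were used here. For each peak they give a signal value, taken for ranks and relative signal, and a −log10 q value, taken to describe the lists and for 1 alternative, per the deposited files' column layout. The reproducible set derives from the 3 replicate lists and the pooled list, per the deposited file listings. Chromatin was sonicated to fragments of 200 to 800 bp, per the labels. The sources used here name no aligner, caller, IDR settings, depth or handling of control reads. Columns were matched to replicates by the labels.

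Genes came from Ensembl release 115 (BDGP6.54, the coordinates of dm6) and coordinates are 1-based. A gene had a summit when one lay within 500 bp of its 5′ end. Genes were coding-near at 1000 bp, and clusters joined starts up to 5000 bp apart. The background was all 133647856 known bases of the 6 arms. Differences were taken within each replicate and tested by exact two-sided sign flips. Counting was checked with planted summits. Python 3.11.15, numpy 2.4.6 and pandas 2.3.3 were used. The genes named are those with a reproducible summit, the next 15 pooled summits, those with a summit inside in all 3 replicates, clusters of at least 5 genes and up to 4 genes per list; the 5 genes with an inside summit in 2 replicates, the Ser-GCT group and the isotypes singled out were chosen after their values were seen. The members, lists and rules were chosen with earlier results of these data known. Only peak lists are compared, so a site without a peak has no value, and tRNA genes are not independent replicates.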

Additional observations from a re-analysis of the deposited data

How the results depend on the processing

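Of 59 alternatives, 35 kept direction and stayed close to the reported value, 22 moved it and 2 reversed it. Counts scaled with the window. At 200 bp, 1000 bp and with the peak required to overlap the gene, 1, 23 and 2 tRNA genes had a reproducible summit and 39, 158 and 47 a pooled one. At 200 and 1000 bp the mean relaxed share was 15.3 and 56.4%, and the strongest-peak share 0.920 and 8.85%. With any base of the gene as the origin the strongest-peak share was 4.83%. With peaks at q of at most 0.01, 13 genes had a pooled summit, the mean relaxed share was 5.86% and the median relative signal 0.978. It was 0.345 at 1000 bp and 1.06 when scaled by the whole-list median. With 0.5 and 2 times as many strongest peaks the share was 2.18 and 9.08%. The coding-near minus coding-far difference was 2.77 points at 200 bp, and 17.2 and 4.19 points when near meant 500 and 2000 bp. It was positive under every alternative run. The clustered minus single difference reversed, to −0.971 points at q of at most 0.01 and to −2.27 with the strongest peaks. Leaving out each replicate gave 26.9 to 40.9% for the relaxed share, 3.62 to 4.31% for the strongest, 8.27 to 11.8 points for near minus far, 3.46 to 10.8 points for clustered minus single and 0.325 to 0.334 for relative signal. Of 2 alternatives chosen after seeing the data, equal list sizes gave 31.6% for the relaxed share, and leaving out summits at coding TSSs left 2 genes with a reproducible summit, 82 with a pooled one and 29.2%. With 3 replicates no test could pass 0.05, and without depth a missing peak cannot be told from too few reads. The causes of these shifts beyond the settings themselves were not tested.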

Other observations

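The order of tRNA genes and all genes in the pooled list depended on the window. Within 200 bp of the start, 13.4% of tRNA genes and 24.5% of all genes had a pooled summit, while within 1000 bp the shares were 54.5 and 50.6%. In the reproducible set tRNA genes were lower at each window, with 0.345, 3.10 and 7.93% of tRNA genes at 200, 500 and 1000 bp, against 8.67, 12.8 and 15.9% of all genes.

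Of the 16 tRNA genes with an intron, 12 had a relaxed summit in replicate 2, against 3 in replicate 1 and 5 in replicate 3. The 274 without an intron had 88, 134 and 60. The difference between the 2 classes was not tested.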
